A study of Mus musculus with 6 samples.

Results

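The clustered protocadherins are cell-surface adhesion proteins of the cadherin superfamily, encoded in the mouse by 3 tandem gene arrays named alpha, beta and gamma. The 55 members described here are all rows of the expression table whose gene symbol is that of an alpha, beta or gamma protocadherin, out of 23748 rows in all. They comprise 11 alpha genes, 22 beta genes and 22 gamma genes. RNA was measured on microarrays in proliferating mouse embryonic fibroblasts from E14.5 embryos, primary cells grown from the dissociated embryo. The 3 wild type samples were compared with 3 samples of genotype FOG-2 Rb-, from knock-in mice whose FOG-2, a transcription co-factor encoded by Zfpm2, is described in the series title as unable to bind the retinoblastoma protein pRb. Both genotypes grew in the same medium with 20% serum and were collected while proliferating, before differentiation. Sample titles carry the number 18 in every wild type case and 27 in every FOG-2 Rb- case; its meaning is not stated, and its part and that of genotype cannot be told apart. The samples of a genotype are labelled experiments 1 to 3. Whether these were different embryos or cultures is not said, and the p-values reflect only the spread among these arrays, possibly a technical one.

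In all 3 clusters each variable exon has a promoter of its own and encodes the extracellular cadherin repeats and the membrane span of 1 isoform. In the alpha and gamma clusters the variable exon is spliced to constant exons that encode a cytoplasmic tail common to the cluster, whereas beta genes are single exons without that tail. Neurons choose a few promoters each, with the help of CTCF, cohesin and DNA methylation, and the resulting proteins bind like isoforms on the opposing membrane, which lets sister branches of a neuron recognise and avoid each other. The C-type isoforms at the end of the alpha and gamma clusters are regulated apart from the others. Most of this is known from the nervous system, not from fibroblasts. Pcdha4, Pcdha6 and Pcdha7 are not analysed here.

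Values are log2 signals after RMA, a method that corrects background, normalizes between arrays and summarises probes. Signals of different genes are not read as relative amounts of RNA, because probes differ in how well they bind. They serve only to mark rows as brighter or dimmer, to choose rows of like signal and to sum lists. As a guide to how dim a row was, each member was set beside 1071 odorant receptor genes, which fibroblasts are not known to use. The 95th percentile of their mean signals was log2 5.07, and 34 of the 55 members lay above it. This was so for 2 of 11 alpha, 11 of 22 beta and 21 of 22 gamma members. Fold changes of rows near or below this signal can be understated, which was not tested here, and the guide is no detection test. Median signal over all rows ran from 5.65 to 5.73 across the 6 arrays. All 14 fibroblast markers lay above the guide. Xist was at 11.69 to 11.75 on every array and the mean signals of the 4 Y-linked genes measured were 3.35 to 3.75, with no gene of that list past the test.

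Beta and gamma protocadherins changed between the genotypes, and no alpha member passed the test. Of the 55 members, 14 rose and 5 fell in FOG-2 Rb- fibroblasts, and 36 did not pass, in limma's test with Benjamini-Hochberg adjustment over all 23748 rows at a threshold of 0.05. That is 25.5% of members higher, where 9.44% of all rows were, and 9.09% lower, where 8.59% of all rows were. In either direction 34.5% of members passed beside 18% of all rows. Of the 14050 rows above the odorant receptor guide 28.2% passed. The guide was set beside the mean of both genotypes, and Pcdhb3 and Pcdhga11 lay above it only through their FOG-2 Rb- arrays, so no share of the members above it is given. The median log2 fold change was 0.08 over the members and -0.02 over all rows. The median size of the change, without its sign, was 0.25 over the members and 0.10 over all rows. The 3 arrays of a genotype did not overlap those of the other for 22 members, which is 40.0% of members and near the 35.6% of all rows. Of these, 16 were higher (29.1%, beside 17.6% of all rows) and 6 lower (10.9%, beside 18% of all rows).

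The count of risers depended on single arrays. Without 1 array 21.8% to 29.1% of members passed in either direction, where 2805 to 3446 of the 23748 rows did. With the p-values of the authors' deposited table, adjusted the same way, 11 members passed, 7 of them higher, which is 20.0% beside 15% of all rows. The number of risers in limma was 8 without FOG-2 Rb- replicate 2 or replicate 3, and 10 without any 1 of the other arrays. Of the 14 risers, 7 passed in each of the 6 fits that left out 1 array (Pcdhb3, Pcdhb18, Pcdhb20, Pcdhb21, Pcdhb22, Pcdhga3 and Pcdhgb5). Of the 5 that fell, 4 did so (Pcdhb14, Pcdhga1, Pcdhga6 and Pcdhga7). Near-identical stretches are common within the beta cluster and within the gamma subfamilies. The treatment of probes shared between paralogs is not given in the sources used here, and values of closely related members are uncertain in that respect.

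In the gamma cluster 6 members rose (27.3%, beside 9.44% of all rows), 4 fell (18.2%, beside 8.59%) and 12 did not pass. All but Pcdhga2 of the 22 lay above the odorant receptor guide, where 15.1% of rows were higher and 13.2% lower. In either direction 45.5% of gamma members passed, beside 28.2% of the rows above the guide. Its median log2 fold change was 0.10, with a range from -0.85 to 2.84. The cluster encodes A, B and C subfamilies, whose A and B genes alternate along the chromosome. Of 12 gamma A genes, 4 rose and 4 fell. Of 7 gamma B genes, 2 rose and none fell, and of 3 gamma C genes none passed. The difference between subfamilies was not tested.

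Pcdhgb5, a gamma B isoform, measured 5.76, 6.11 and 6.48 in wild type and 8.84, 9.27 and 8.73 in FOG-2 Rb- (replicates 1, 2 and 3 of each genotype, in this order throughout). Every FOG-2 Rb- array lay more than 2 log2 units above the highest wild type array. The mean rose from 6.11 ± 0.36 to 8.95 ± 0.28 (SD, n = 3 each), 7.14-fold (log2 fold change 2.84, SE 0.21, limma adjusted p = 0.000208). The 95% interval for the log2 fold change was 2.35 to 3.32.

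Pcdhga3, a gamma A isoform, measured 6.96, 7.47 and 7.39 in wild type and 8.21, 8.33 and 8.35 in FOG-2 Rb-. The genotypes did not overlap, and wild type replicate 1 was the lowest array. The gene rose 2.03-fold (log2 fold change 1.02, SE 0.13, limma adjusted p = 0.00257). Smaller rises were those of Pcdhga5 (1.77-fold), Pcdhga11 (1.54-fold), Pcdhga9 (1.42-fold) and Pcdhgb1 (1.19-fold). Pcdhga5 ranged from 5.44 to 6.36 in wild type and from 6.76 to 6.89 in FOG-2 Rb-, so its wild type arrays scattered far more. Pcdhga11 lay at 4.69 to 4.99 in wild type, below the odorant receptor guide, and at 5.25 to 5.73 in FOG-2 Rb-. Each of these 4 calls was lost in some fits that left out 1 array. The call for Pcdhgb1 was lost without any 1 of the 6 arrays (adjusted p = 0.0686 to 0.123), that for Pcdhga9 in 5 of the 6 fits, for Pcdhga5 in 4 and for Pcdhga11 in 2.

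Pcdhga6, another gamma A isoform, had the largest fall of any member that passed. It measured 7.66, 7.55 and 7.67 in wild type and 6.62, 6.66 and 7.05 in FOG-2 Rb-. All FOG-2 Rb- arrays lay below all wild type arrays, with replicate 3 the nearest to them. The mean fell from 7.63 ± 0.07 to 6.78 ± 0.24 (SD, n = 3 each), 1.80-fold (log2 fold change -0.85, SE 0.12, limma adjusted p = 0.00311).

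Pcdhga1, the first gene of the cluster, measured 8.67, 8.75 and 8.65 in wild type and 8.05, 8.13 and 8.09 in FOG-2 Rb-. Its SD was at most 0.05 in each genotype, and it was 1.52-fold lower in FOG-2 Rb- (log2 fold change -0.60, SE 0.05, limma adjusted p = 0.000366). Pcdhga7 was at 7.90 to 7.92 in wild type and at 7.51 to 7.70 in FOG-2 Rb-, a fall of 1.25-fold. Pcdhga8 was at 6.24 to 6.37 in wild type and at 5.56 to 6.0 in FOG-2 Rb-, a fall of 1.52-fold, whose call was lost in 4 of the 6 fits without 1 array.

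**Figure D1:**
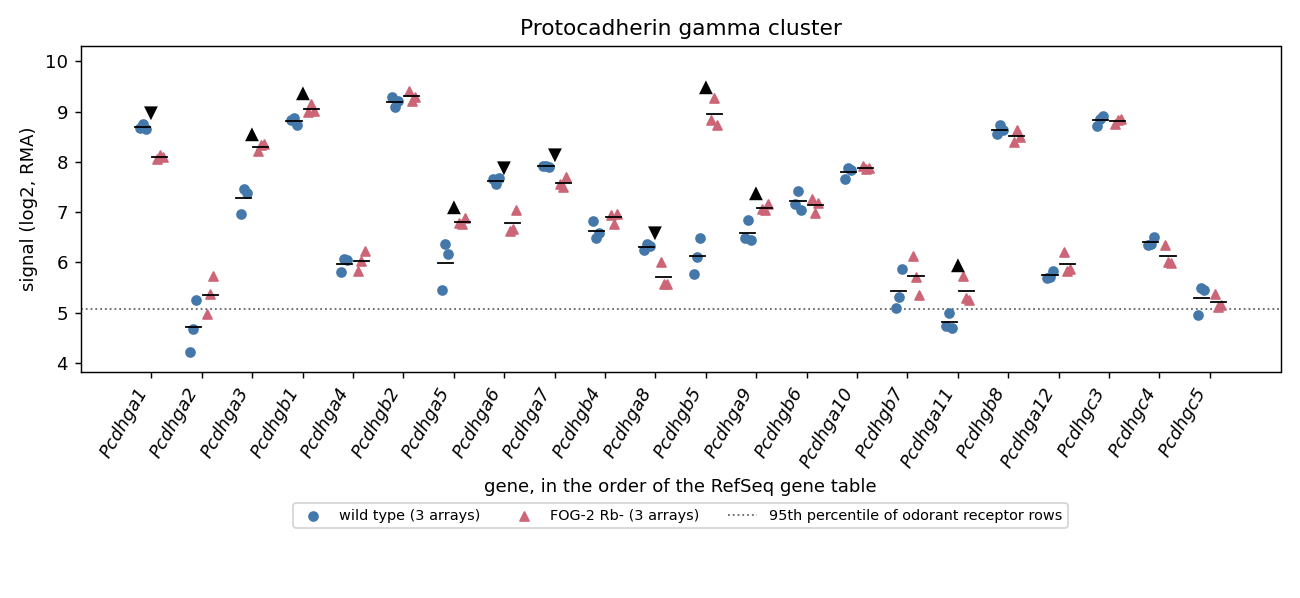
Log2 signal of the 22 gamma cluster genes in gene order, with 1 point per array (circles, 3 wild type; triangles, 3 FOG-2 Rb-) and bars at the genotype means. Black triangles mark genes past the test, pointing up for the 6 higher and down for the 4 lower in FOG-2 Rb-, and the dotted line is the odorant receptor guide at 5.07; Pcdhgb5 stands out with means of 6.11 and 8.95.

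Neighbouring gamma genes moved in opposite directions at 2 places among the 21 adjacent pairs of measured members. Pcdhga8 fell and Pcdhgb5, the next in order, rose; Pcdhga5 rose and Pcdhga6 fell. Both genes rose in 2 adjacent pairs (Pcdhga3 with Pcdhgb1, Pcdhgb5 with Pcdhga9) and both fell in 1 pair (Pcdhga6 with Pcdhga7). In 9 pairs 1 gene passed and in 7 pairs neither did. As a description across genes, which are not independent, the Spearman correlation of log2 fold change with gene order was -0.17 (n = 22 genes on the same 6 arrays).

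Further gamma genes follow, of which Pcdhgb1 alone passed. Pcdhgb2 measured 9.30, 9.09 and 9.21 in wild type and 9.41, 9.21 and 9.29 in FOG-2 Rb-, with overlapping genotypes and a log2 fold change of 0.10 (95% interval -0.08 to 0.28, limma adjusted p = 0.453). Pcdhgb1, whose call is given above, measured 8.84, 8.87 and 8.73 in wild type and 9.0, 9.16 and 9.02 in FOG-2 Rb-. Pcdhga10 had a log2 fold change of 0.10 (interval -0.06 to 0.26), Pcdhgb6 of -0.07 (-0.34 to 0.21) and Pcdhga4 of 0.06 (-0.22 to 0.34). Pcdhgb8, which RefSeq lists as a transcribed pseudogene, was at 8.56, 8.74 and 8.63 in wild type and at 8.40, 8.64 and 8.49 in FOG-2 Rb- (log2 fold change -0.13, interval -0.32 to 0.05). Wider intervals belonged to Pcdhga2 (log2 fold change 0.64, interval -0.02 to 1.31) and Pcdhgb7 (0.30, interval -0.29 to 0.89), where a sizeable change was not detectable with 3 arrays a genotype. Pcdhgb4 (0.27) and Pcdhga12 (0.22) did not pass either (adjusted p = 0.117 and 0.211).

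Of the 5 C-type genes, which neurons use apart from the random choice of the others, none passed. Pcdhgc3 measured 8.72, 8.85 and 8.92 in wild type and 8.75, 8.83 and 8.85 in FOG-2 Rb-. The genotypes overlapped fully, with a log2 fold change of -0.02 and a 95% interval of -0.17 to 0.13 (limma adjusted p = 0.896). Pcdhgc4 measured 6.34, 6.37 and 6.51 in wild type and 6.35, 6.01 and 5.99 in FOG-2 Rb-. FOG-2 Rb- replicates 2 and 3 were below all wild type arrays and replicate 1 was not. The log2 fold change was -0.29 (interval -0.54 to -0.03, limma adjusted p = 0.123). Of the 6 fits that left out 1 array, 1 passed, the fit without FOG-2 Rb- replicate 1. Limma adjusted p ran from 0.0183 in that fit up to 0.295.

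Pcdhgc5 measured 4.96, 5.48 and 5.45 in wild type and 5.36, 5.11 and 5.14 in FOG-2 Rb- (log2 fold change -0.10, interval -0.44 to 0.25). Pcdhac1 measured 4.55, 4.94 and 4.72 in wild type and 4.50, 5.51 and 5.02 in FOG-2 Rb- (0.28, interval -0.30 to 0.85). Pcdhac2 measured 3.86, 4.36 and 4.06 in wild type and 4.02, 4.30 and 3.38 in FOG-2 Rb- (-0.19, interval -0.76 to 0.37). In these 3 genes the genotypes overlapped, and the signals were close to or below the odorant receptor guide.

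In the beta cluster 8 members rose, 1 fell and 13 did not pass. The median log2 fold change was 0.09, with a range from -0.36 to 1.59. Risers made up 36.4% of the 22 genes, beside 9.44% of all rows, and in every fit that left out 1 array between 5 and 8 genes rose. Below the odorant receptor guide lay 11 members, 2 of which passed (Pcdhb2 and Pcdhb21).

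Pcdhb3 measured 4.40, 4.23 and 4.41 in wild type and 6.15, 5.79 and 5.88 in FOG-2 Rb-. Wild type arrays were all below the odorant receptor guide of 5.07 and FOG-2 Rb- arrays all above it. The mean rose from 4.35 ± 0.10 to 5.94 ± 0.18 (SD, n = 3 each), 3.02-fold (log2 fold change 1.59, SE 0.10, limma adjusted p = 0.000113).

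Pcdhb22, the beta gene nearest to the gamma cluster, measured 6.23, 6.59 and 6.65 in wild type and 7.74, 7.75 and 7.68 in FOG-2 Rb-. The FOG-2 Rb- arrays lay close together and more than 1 log2 unit above each wild type array. The gene rose 2.36-fold (log2 fold change 1.24, SE 0.11, limma adjusted p = 0.000471). Its neighbour Pcdhb21 measured 4.23, 4.68 and 4.78 in wild type and 5.45, 5.63 and 5.58 in FOG-2 Rb-, a rise of 1.98-fold (limma adjusted p = 0.00383).

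The last 5 beta genes in order, Pcdhb18 to Pcdhb22, all rose. Pcdhb18 was at 5.61 to 5.88 in wild type and at 6.21 to 6.51 in FOG-2 Rb-, a rise of 1.63-fold. Pcdhb19 was at 5.94 to 6.29 and at 6.40 to 6.70, a rise of 1.35-fold. Pcdhb20 measured 7.65, 7.69 and 7.63 in wild type and 8.04, 8.04 and 7.98 in FOG-2 Rb-, a rise of 1.28-fold with an SD of 0.03 in each genotype (log2 fold change 0.36, SE 0.05, limma adjusted p = 0.0024). The call for Pcdhb19 was lost in 4 of the 6 fits without 1 array. Upstream of them Pcdhb15 rose 1.40-fold, from 6.83 to 7.20 in wild type arrays to 7.43 to 7.65 in FOG-2 Rb- arrays, and its call was lost in 3 of the 6 fits.

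Between these genes, Pcdhb16 and Pcdhb17 did not pass although their genotypes did not overlap. Pcdhb16 measured 7.23, 7.49 and 7.50 in wild type and 7.57, 7.65 and 7.65 in FOG-2 Rb- (log2 fold change 0.22, interval 0.03 to 0.41, limma adjusted p = 0.121). Pcdhb17 measured 8.35, 8.25 and 8.31 in wild type and 8.39, 8.36 and 8.52 in FOG-2 Rb- (log2 fold change 0.12, interval -0.02 to 0.26, limma adjusted p = 0.241). Pcdhb14, directly before Pcdhb15, was the beta gene that fell. It measured 6.26, 6.13 and 6.07 in wild type and 5.75, 5.83 and 5.80 in FOG-2 Rb-, with no overlap, a fall of 1.28-fold (log2 fold change -0.36, SE 0.06, limma adjusted p = 0.00789).

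**Figure D2:**
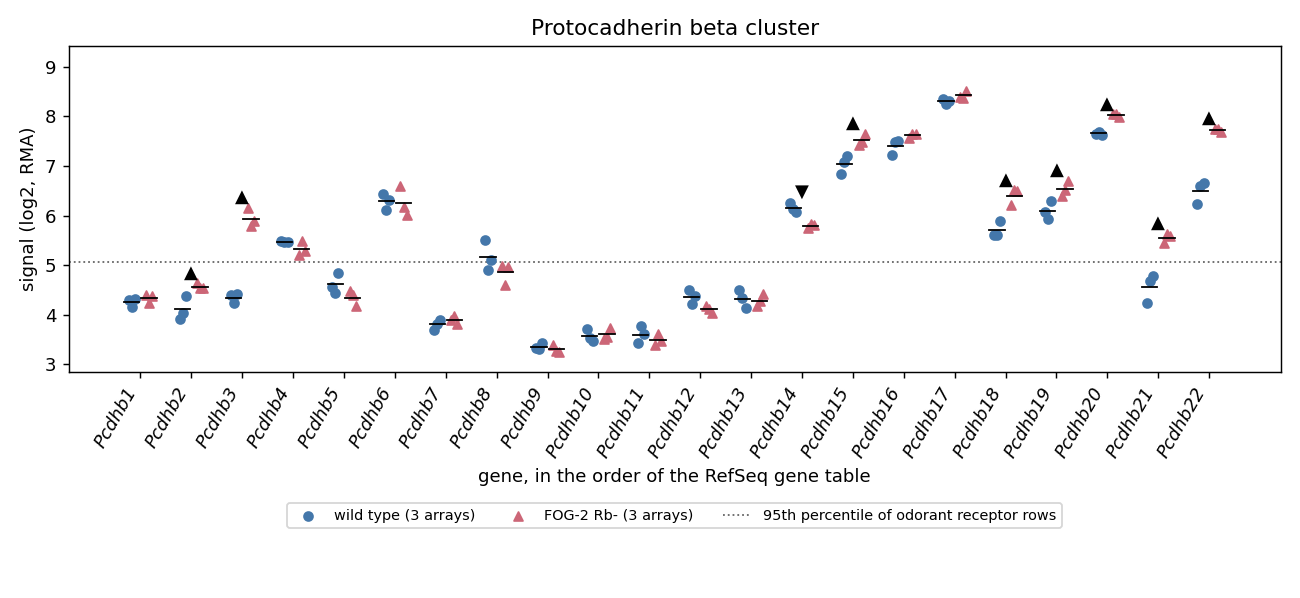
Log2 signal of the 22 beta cluster genes in gene order, with 1 point per array (circles, 3 wild type; triangles, 3 FOG-2 Rb-) and bars at the genotype means. Black triangles mark the 8 genes higher and the 1 gene lower in FOG-2 Rb- past the test. The dotted line is the odorant receptor guide at 5.07. The run from Pcdhb18 to Pcdhb22 and the rises of the adjacent genes Pcdhb2 and Pcdhb3 are visible.

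The first 13 beta genes in order held 2 of the risers (Pcdhb2 and Pcdhb3) and the last 9 held 6, a division made after the values had been seen and not tested. The first 13 genes also had the dimmer rows, with 3 of 13 above the guide, where the last 9 had 8 of 9. Pcdhb2 was at 3.92 to 4.37 in wild type and at 4.53 to 4.63 in FOG-2 Rb-, a rise of 1.38-fold that was lost in 5 of the 6 fits without 1 array. Across the 22 genes the Spearman correlation of log2 fold change with gene order was 0.37, given as a description over genes measured on the same arrays. For Pcdhb12, below the guide, the log2 fold change was -0.25, with no overlap between genotypes (adjusted p = 0.075). The remaining 10 of the first 13 had log2 fold changes between -0.32 and 0.10, and none passed.

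No alpha gene passed, either in the fit on all arrays or in any fit that left out 1 array. At an unadjusted p under 0.05 the limma count was also 0 of 11, and it was 0 with the p-values of the authors' deposited table after adjustment. Alpha log2 fold changes ran from -0.47 to 0.47 with a median of 0.04. In every alpha gene the genotypes overlapped. Signals were mostly dim, with Pcdha3 and Pcdha10 above the odorant receptor guide. Of the 10445 rows within the same range of mean signal, 5.53% passed the test.

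Pcdha10 measured 4.98, 5.98 and 5.70 in wild type and 6.01, 6.25 and 5.81 in FOG-2 Rb-. Wild type replicate 1 was the lowest array and the genotypes overlapped, and the log2 fold change was 0.47 (95% interval -0.13 to 1.06, limma adjusted p = 0.272). Pcdha3 measured 5.40, 5.27 and 5.02 in wild type and 5.18, 5.45 and 5.44 in FOG-2 Rb- (log2 fold change 0.13, interval -0.15 to 0.40). Pcdha5 measured 4.99, 5.24 and 4.72 in wild type and 4.73, 5.19 and 4.80 in FOG-2 Rb- (-0.08, interval -0.47 to 0.31).

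Alpha genes varied more between arrays of 1 genotype than other rows of like signal. Their median within-genotype SD was 0.38, beside 0.11 over the 10445 rows within the same range of mean signal, 0.15 over beta members and 0.17 over gamma members. Pcdha1 was the extreme, at 4.76, 4.61 and 5.65 in wild type and 5.39, 3.67 and 4.55 in FOG-2 Rb-. Its values crossed the guide in both genotypes, and its within-genotype SD was 0.73. Pcdha9 was the steadiest, at 3.84 to 4.16 in wild type and 3.97 to 4.15 in FOG-2 Rb-. The median half-width of the unadjusted 95% interval of an alpha log2 fold change was 0.57, beside 0.24 in the beta and 0.26 in the gamma cluster. A call after adjustment takes a change larger than the half-width. Changes smaller than 0.57, and some larger ones, were therefore not detectable in most alpha genes. The other alpha genes, Pcdha2, Pcdha8, Pcdha11 and Pcdha12, had log2 fold changes from -0.02 to 0.09.

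**Figure D3:**
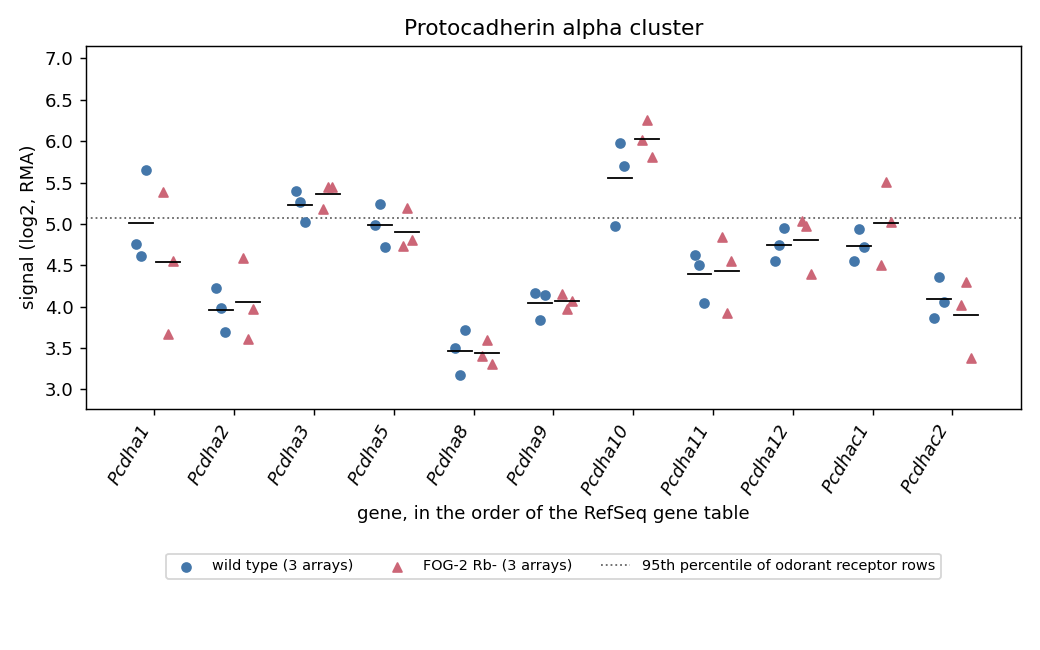
Log2 signal of the 11 alpha cluster genes in gene order, with 1 point per array (circles, 3 wild type; triangles, 3 FOG-2 Rb-) and bars at the genotype means. The dotted line is the odorant receptor guide at 5.07; the genotypes overlap in all 11 genes, 9 of which have a mean below the guide, and no gene passes the test.

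Of the genes beside the clusters, 4 rose, 2 fell and 36 did not pass. These 42 measured genes were 20 before the alpha cluster, 2 between the beta and gamma clusters and 20 after the gamma cluster. The share that passed was 14.3%, beside 18% of all rows, and log2 fold changes ran from -0.53 to 0.48, with a median of -0.01. Above the odorant receptor guide, where 28.2% of rows passed, lay 35 of the 42. The count was sensitive to the fit: 12 passed with a variance prior that follows the signal (28.6%, beside 23.1% of all rows), and 14 of the 35 left when dim rows were removed (40.0%, beside 35.8% of all rows). With that variance prior 19 of 55 members (34.5%) passed. With the p-values of the authors' deposited table, adjusted the same way, 8 of the 42 passed (19.0%), beside 20.0% of members and 15% of all rows.

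Taf7, a gene of the general transcription machinery between the beta and gamma clusters, rose 1.26-fold (limma adjusted p = 0.00501). The mitochondrial carrier gene Slc25a2 beside it did not pass (log2 fold change 0.23). Tmco6 and Sra1, both before the alpha cluster, rose 1.4-fold and 1.31-fold, and Hbegf, an EGF family ligand gene on the same side, fell 1.2-fold. After the gamma cluster Spry4, an inhibitor of receptor tyrosine kinase signalling, fell 1.45-fold and Nr3c1, the glucocorticoid receptor gene, rose 1.14-fold. For Diaph1, the nearest gene after the gamma cluster, the log2 fold change was 0.11 (adjusted p = 0.165), and for Gm6756, the nearest before the alpha cluster, it was -0.20 (adjusted p = 0.267). None of the 42 passed with a 2-fold change, which 4 members did (Pcdhgb5, Pcdhb3, Pcdhb22 and Pcdhga3) beside 1.24% of all rows.

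**Figure D4:**
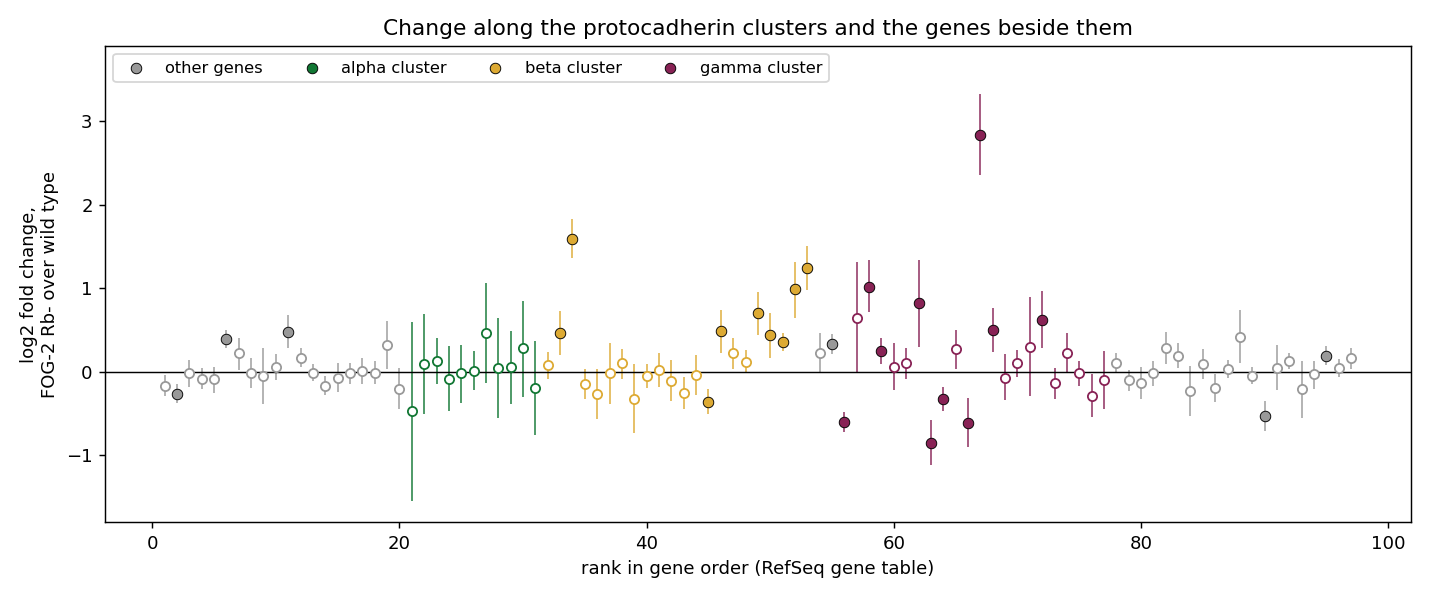
Log2 fold change, FOG-2 Rb- over wild type, of the 55 clustered protocadherins and 42 genes beside or between them, by rank in gene order, with 95% intervals from limma. Filled points passed the test and open points did not; flanking genes (grey) stay between -0.53 and 0.48, alpha genes are all open with wide intervals, and the larger changes lie in the beta and gamma clusters.

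Genes of the machinery known to act at these promoters were also read from lists. A list of 17 genes covered CTCF and the cohesin complex, which loop the enhancers of the clusters to a promoter. Of these, 6 fell, none rose and 11 did not pass. The share that fell was 35.3%, beside 8.59% of all rows. Above the odorant receptor guide, where 16 of the 17 lay, 13.2% of rows were lower. The median log2 fold change of the list was -0.12. With a variance prior that follows the signal 10 of the 17 passed, where 23.1% of all rows did. In each fit that left out 1 array fewer than 6 passed. Esco2, which acetylates cohesin in S phase, fell 1.4-fold, Cdca5, which encodes the cohesin stabiliser sororin, 1.35-fold, and the cohesin core genes Smc3 and Smc1a 1.24-fold and 1.16-fold. Pds5b, a cohesin regulator, fell 1.2-fold. Ctcf, which binds the promoters and enhancers themselves, measured 9.60, 9.58 and 9.50 in wild type and 9.40, 9.36 and 9.32 in FOG-2 Rb-; it fell 1.15-fold (limma adjusted p = 0.0338).

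Of 17 genes of DNA methylation and repressive chromatin, 2 rose and 3 fell, which is 29.4%. All 17 lay above the odorant receptor guide, where 28.2% of rows passed, so the share is near its background. Uhrf1, which guides maintenance methylation, fell 1.37-fold, Smchd1, a repressor known to silence clustered protocadherins in the mouse, 1.33-fold, and the maintenance methyltransferase gene Dnmt1 1.14-fold. Tet1, a 5-methylcytosine oxidase gene, rose 1.30-fold and Ehmt1, a histone H3K9 methyltransferase gene, 1.16-fold. Smchd1 measured 9.61, 9.64 and 9.65 in wild type and 9.22, 9.20 and 9.26 in FOG-2 Rb-, without overlap. The de novo methyltransferase gene Dnmt3b had a log2 fold change of -0.13 and Dnmt3a of 0.14, and neither passed. Without wild type replicate 3 the calls numbered 4, and without any 1 of the other arrays 2 or 3. With dim rows removed they numbered 8, where 35.8% of the rows left passed. DNA methylation and CTCF binding were not measured.

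Of 24 genes of binding partners and of proteolytic processing, 5 rose and 1 fell. That is 25.0%, beside 18% of all rows and 28.2% of rows above the guide, where 23 of the 24 lay. Ptk2b, which encodes the kinase Pyk2 that the alpha and gamma tails bind, measured 7.17, 7.29 and 7.22 in wild type and 8.97, 8.92 and 8.85 in FOG-2 Rb-. It rose 3.22-fold (log2 fold change 1.69, SE 0.06, limma adjusted p = 7.78e-06), whereas Ptk2, which encodes the related kinase FAK, rose 1.13-fold. Adam10, the protease that sheds protocadherin ectodomains, rose 1.34-fold. In the actin-regulating WAVE complex, which binds protocadherin tails, Wasf2 rose 1.15-fold and Wasf3 fell 1.29-fold. With 1 array left out 2 to 4 genes of this list passed, and with arrays centred on their medians 2. With a variance prior that follows the signal 11 passed, where 23.1% of all rows did.

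The unclustered protocadherins and cadherin-related genes, members of the same superfamily without tandem promoters, were read beside them. Of 17 such genes, 2 rose (11.8%, beside 9.44% of all rows) and 4 fell (23.5%, beside 8.59% of all rows). In either direction 35.3% passed, where 34.5% of the clustered members and 18% of all rows did. The difference from the clustered members was not tested. Pcdh19, an unclustered delta protocadherin, measured 9.71, 9.71 and 9.75 in wild type and 7.99, 7.99 and 7.81 in FOG-2 Rb-, a fall of 3.46-fold (limma adjusted p = 1.04e-05). Pcdh20, Pcdh11x and Pcdh18 fell by 1.61-fold, 1.58-fold and 1.22-fold, while Cdhr1 rose 1.67-fold and Pcdh7 rose 1.16-fold. Below the odorant receptor guide lay 8 of the 17, Pcdh11x among them. Pcdh1 and Pcdh12, which did not pass, were also counted among the genes beside the clusters. Their median log2 fold change was -0.05, beside 0.08 over the clustered members.

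Markers of other cell types were read beside these results. Of 14 marker genes of neurons and neural progenitors, the cells in which clustered protocadherins are best known, 1 rose and 2 fell. That is 21.4%, near the 18% of all rows, and 7 of the 14 lay below the odorant receptor guide. Stmn2 fell 1.70-fold, Snap25 1.39-fold and Map2 rose 1.17-fold. The summed linear signal of this list, to which Map2 adds most, ran from 1094 to 1117 in wild type and from 1127 to 1162 in FOG-2 Rb-, whereas the list's median log2 signal went the other way, from 5.21 to 5.36 in wild type and from 4.91 to 5.06 in FOG-2 Rb-. A sum over genes weighs the brightest probes most and is given only as the list's summed level. Of 8 glial and neural crest markers none passed, with 1 of 8 at an unadjusted p under 0.05 in limma.

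Of 6 mesothelium markers 4 rose and 1 fell, and their summed signal ran from 417.3 to 430.9 in wild type and from 499.3 to 522.5 in FOG-2 Rb-, with medians of 5.51 to 5.67 and 6.15 to 6.27. Upk3b rose 2.44-fold, Wt1 2.10-fold, Krt19 1.67-fold and Lrrn4 1.38-fold, whereas Msln fell 2.35-fold. Below the guide lay 2 of the 6, Muc16 and the riser Lrrn4, whose arrays ran from 3.91 to 4.54 over both genotypes. Of 6 epithelium markers 1 rose (Krt18, 4.72-fold), with 2 of 6 below the guide and a summed signal of 250.7 to 279.5 in wild type and 472.2 to 512.5 in FOG-2 Rb-. That gap lay in Krt18, and the list's median log2 signal was 5.08 to 5.23 in wild type and 5.19 to 5.26 in FOG-2 Rb-. Of 6 endothelium markers 1 rose (Kdr, 5.18-fold), with 3 of 6 below the guide and a summed signal of 177.7 to 193.3 against 333 to 352.6. Here the gap lay in Kdr, and the list's median was 4.93 to 5.15 against 5.07 to 5.17. Of 5 macrophage markers 2 rose (Cd68 1.62-fold and Csf1r 1.26-fold), with 3 of 5 below the guide and a summed signal of 233.5 to 249 against 345.4 to 349.3 beside medians of 4.27 to 4.52 and 4.21 to 4.32. Of 6 muscle markers 1 rose (Des, 1.32-fold), with a summed signal of 364.1 to 384.7 against 403.6 to 423.8 and medians of 5.28 to 5.41 and 5.46 to 5.54. The share that passed was 16.7% each for epithelium, endothelium and muscle, near the 18% of all rows. It was 40.0% for macrophage and 83.3% for mesothelium markers, in lists of 5 and 6 genes. Of 14 fibroblast markers 3 rose and 5 fell, which is 57.1%, beside 28.2% of rows above the guide, where all 14 lay. Dcn fell 3.41-fold, Lum 2.93-fold, Pdgfra 1.87-fold, Thy1 1.71-fold and S100a4 1.67-fold. Col1a1 rose 1.3-fold, Col3a1 1.29-fold and Postn 1.21-fold. The part of such shifts in the protocadherin changes was not tested, and in bulk RNA fewer cells of a type and less RNA per cell cannot be told apart.

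**Figure D5:**
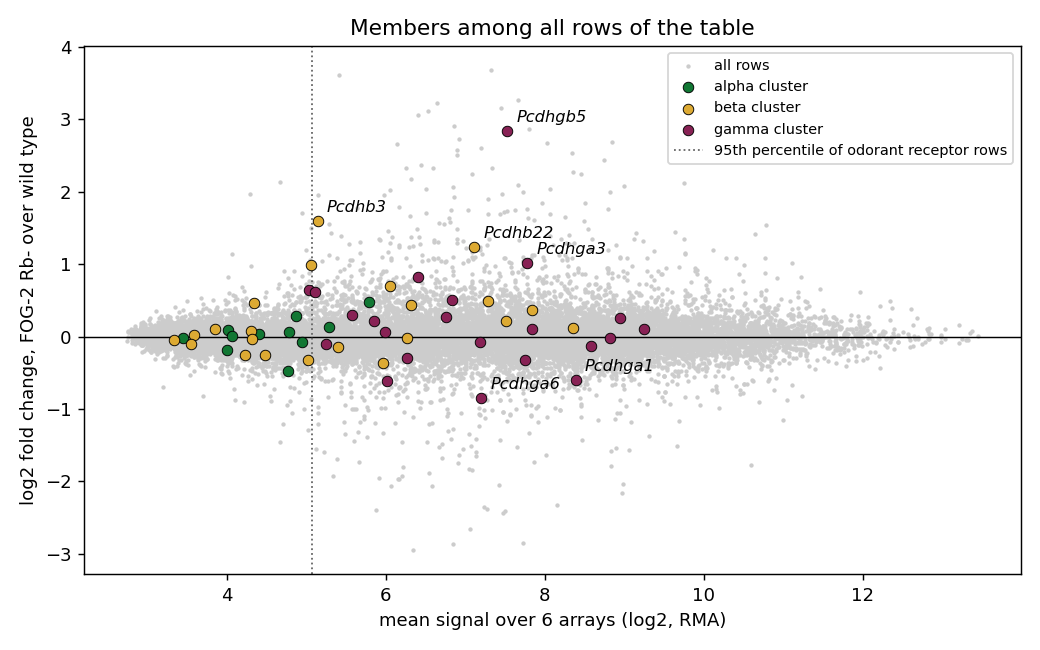
Log2 fold change, FOG-2 Rb- over wild type, against mean log2 signal over 6 arrays for all 23748 rows (grey) and the alpha, beta and gamma protocadherins (coloured), with the odorant receptor guide at 5.07 as a dotted line. Pcdhgb5 at 2.84 is the highest member, the 4 members beyond 2-fold are all higher in FOG-2 Rb-, and most alpha genes lie left of the line.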

How the data were processed

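The authors deposited log2 expression values, 1 Entrez gene per row, and a table of their own comparison with a p-value, a ratio and a signed fold-change score per gene. RMA and Partek are named, per the submitters' processing notes; probe definition, versions and build are not stated there. No coordinates are given for this reason, and the RefSeq gene table (GRCm38.p6) served for gene order only. The log2 of the deposited ratio and the log2 fold changes printed here were at most 7.18e-06 apart. No sequence of the members is shown.

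Genotypes were compared on the 6 arrays with lmFit and eBayes of limma 3.58.1 (R 4.3.3), two-sided and without covariates. P-values were adjusted over 23748 rows by the Benjamini-Hochberg method, with 0.05 as the threshold. Adjusted p-values of genes are limma's, and 95% intervals are limma's, unadjusted. The fit was tested on simulated data. Precision is limited by the number of arrays; no scanner files were used here.

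Members were matched by symbol, and all 145 genes of the other lists by symbol or Entrez ID. Sample values are given for members past the threshold with a change of at least 2-fold, the 3 brightest per cluster, the C-type genes and the largest rise and fall per cluster. Values of further members were added after they had been seen. Other lists name up to 5 genes past the threshold with the largest changes, and the few further genes named were chosen after their values were seen. Members and lists were chosen with earlier results of these data known. The alternatives tried are given in the closing section.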

Additional observations from a re-analysis of the deposited data

How the results depend on the processing

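Alternatives left out each array, added the replicate number as a block, centred arrays on their medians, applied quantile normalization anew, dropped dim rows (mean log2 signal under 5), changed the variance prior (trend or robust) or took the p-values of the authors' deposited table. None of the 19 called members changed direction in any of them; of the uncalled members named under the rule, Pcdha5, Pcdhac2 and Pcdhgc3 changed sign without 1 array. Without 1 array 12 to 16 members passed, beside 19 on all arrays: 8 to 10 higher and 4 to 6 lower, in the beta cluster 5 to 8 higher and 1 to 2 lower, in the gamma cluster 2 to 5 higher and 3 to 5 lower. With the deposited p-values 7 members were higher, 5 beta and 2 gamma, and all 11 called were among the 19. Without dim rows, the median log2 fold change was 0.30 over the 2 alpha genes left and 0.36 over the beta genes left. These medians say nothing about the clusters, because the filter reads the mean of both genotypes and kept Pcdhb3 and Pcdhb21 through their FOG-2 Rb- arrays. Same-numbered samples did not deviate together (correlations of 0.03, 0.02 and 0), so the number was not taken as a pairing. With the replicate block 17 members passed, 16 of them shared, beside 3 genes of DNA methylation, 3 of partners and processing, 1 macrophage and 0 muscle markers. Without 1 array, 4 to 5 genes of CTCF and cohesin, 2 to 4 of DNA methylation, 2 to 4 of partners, 2 to 4 neuronal, 0 to 1 glial, 1 to 2 macrophage, 0 to 1 muscle markers and 4 to 6 unclustered protocadherins passed. The trend, with which 23.1% of all rows passed, gave 10 genes of CTCF and cohesin, 11 of partners, 12 flanking and 2 muscle. Without dim rows, where 35.8% of the rows left passed, 8 of DNA methylation, 14 flanking and 2 muscle passed. Centred arrays gave 2 of partners, quantile normalization 2 epithelium and 2 muscle, and the deposited p-values 1 macrophage and 0 muscle. The cause of these changes was not tested.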
